A study of Mus musculus with 8 samples.

Results

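The interferon-stimulated and MHC class I genes are 41 genes that interferons switch on or that present peptides on MHC class I, measured here in pancreatic islets of mice with and without *Cnr1*, the gene of the cannabinoid 1 receptor (CB1R), in beta cells. They are a list of gene symbols, matched to probes by accession number, and the brightest probe of each gene was used. On the arrays, 39 of the 41 had a probe whose accession number matched the symbol and that was bright enough to compare, out of 16955 genes compared in all; *Mx1* and *Mx2* were not analysed here.

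The comparison was between islets of 4 β-CB1R+/+ and 3 β-CB1R-/- mice, all male and on a standard diet; the islets were hand-picked after collagenase digestion. The β-CB1R-/- mice carried *Cnr1* flox/flox with MIP-Cre/ERT, a tamoxifen-inducible Cre under the mouse insulin promoter, and the β-CB1R+/+ littermates were *Cnr1* flox/flox without it. Both received tamoxifen, so that the transgene and the deletion came together in this comparison; islets with MIP-Cre/ERT alone were not analysed here. The sample labels say only CB1 knockout or wild type and describe the global knockout, whereas the title of the series names the beta cell-specific one; the age of these mice was not given in the sources used here. Each RNA was read on an Agilent array in 1 colour (Cy3). The second β-CB1R-/- mouse had 2 repeat arrays, which were averaged. All 8 arrays shared 1 slide, on which the genotypes occupied opposite sides, so that position and genotype cannot be told apart.

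Interferons bind receptors at the cell surface and activate Janus kinases. With type I interferon, a complex that holds STAT2 and IRF9 then binds the interferon-stimulated response element (ISRE). Interferon-γ acts mainly through the γ-activated site (GAS). The induced genes encode sensors of viral RNA, antiviral effectors, large GTPases and the machinery that cuts peptides in the immunoproteasome, moves them through the TAP transporter and displays them on MHC class I. In islets this programme is best known from beta cells under viral infection and in type 1 diabetes, in which MHC class I is abundant on islet cells.

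The proximal promoters of 5 of the genes are shown because the letters of the response element are in them. The 250 bases before the transcription start are given 5′ to 3′ on the strand of the gene, from the RefSeq annotation of GRCm38.p6, and capitals mark each match to the ISRE letters, GAAA, any 2 bases and GAAA again, searched for on both strands. On the other strand they read TTTC, any 2 bases and TTTC. *Isg15* lies at chr4:156200819-156201068 on the minus strand, *Ifit3* at chr19:34583279-34583528 on the plus strand, *Bst2* at chr8:71537473-71537722 on the minus strand, *Gbp3* at chr3:142559794-142560043 on the plus strand and *B2m* at chr2:122147437-122147686 on the plus strand.
Isg15: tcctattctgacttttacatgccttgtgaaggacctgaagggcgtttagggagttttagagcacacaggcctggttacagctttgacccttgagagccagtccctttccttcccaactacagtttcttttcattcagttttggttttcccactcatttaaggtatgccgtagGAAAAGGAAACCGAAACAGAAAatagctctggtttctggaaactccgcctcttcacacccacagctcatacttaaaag
Ifit3: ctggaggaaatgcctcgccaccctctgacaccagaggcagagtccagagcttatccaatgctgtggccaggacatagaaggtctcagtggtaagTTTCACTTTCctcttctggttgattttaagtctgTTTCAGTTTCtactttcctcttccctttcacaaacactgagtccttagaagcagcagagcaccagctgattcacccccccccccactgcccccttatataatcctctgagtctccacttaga
Bst2: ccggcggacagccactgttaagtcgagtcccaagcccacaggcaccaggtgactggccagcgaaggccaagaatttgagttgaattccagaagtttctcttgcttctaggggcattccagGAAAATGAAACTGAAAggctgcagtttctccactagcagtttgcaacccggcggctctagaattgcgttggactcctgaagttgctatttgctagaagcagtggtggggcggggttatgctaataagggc
Gbp3: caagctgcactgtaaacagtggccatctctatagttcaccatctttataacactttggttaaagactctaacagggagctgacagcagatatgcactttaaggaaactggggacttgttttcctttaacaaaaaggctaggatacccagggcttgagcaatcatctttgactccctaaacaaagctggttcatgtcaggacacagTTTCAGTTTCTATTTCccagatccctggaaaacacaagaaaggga
B2m: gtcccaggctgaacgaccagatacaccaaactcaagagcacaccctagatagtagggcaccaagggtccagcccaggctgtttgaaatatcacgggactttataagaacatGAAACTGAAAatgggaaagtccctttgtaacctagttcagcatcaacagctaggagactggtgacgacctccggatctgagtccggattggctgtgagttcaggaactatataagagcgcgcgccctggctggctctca

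For *Gbp3*, which has 2 windows, the window with more matches is shown. In *Isg15*, 3 matches overlapped in a run that began 78 bases before the start, and the 2 matches of *Bst2* and of *Gbp3* also overlapped. *Ifit3* held 2 separate matches and *B2m* held 1. Of the 33 genes with a window, from 250 bases before the start to 50 after it, 17 held the ISRE letters (51.5%), against 3.99% of the 27025 genes with such a window. The GAS letters, TTCNNNGAA, were in 10 of the 33 (30.3%), against 9.55% of all genes; these letters read the same on both strands. The 8 genes with no window were *Mx1*, *Mx2*, *Gbp4*, *Usp18*, *Gbp6*, *Oas2*, *Parp9* and *Tap2*. A match is a description of the sequence and does not show that a factor is bound.

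The targeted gene and the tissue were checked first. The log2 intensity of *Cnr1* was −1.11, −0.77, −0.53 and −0.015 in β-CB1R+/+ mice 1 to 4 and −2.30, −3.13 and −2.28 in β-CB1R-/- mice 1 to 3, and the genotypes did not overlap (log2 fold change −1.97, standard error 0.33, limma adjusted p = 0.193). Intensities here are log2 values from which the 75th percentile of the array was taken away; they compare mice for one probe, not one probe with another. Between 33308 and 39989 probes of an array were well above background, out of 55681. All 8 beta cell, 4 alpha cell and 2 delta cell markers could be compared. So could all 8 acinar, 6 endothelial, 6 stellate cell and fibroblast and 10 macrophage markers and 6 of 8 T cell markers, so the picked islets also held RNA of other cells. In RNA from whole islets, fewer cells of a type and less RNA per cell cannot be told apart. Nothing in the sources used here says whether the mice of a group shared litters or preparation days.

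In the comparison of β-CB1R-/- with β-CB1R+/+ islets, no interferon-stimulated or MHC class I gene passed the adjusted threshold. In all, 30 of the 39 were lower in β-CB1R-/- islets and 9 were higher. The double-stranded RNA sensor *Ifih1* and the virus-tethering membrane protein *Bst2* were lower in every β-CB1R-/- mouse than in any β-CB1R+/+ mouse, on average by 1.72-fold and 1.93-fold. The GTPase *Irgm1* also separated the genotypes, by 1.21-fold on average. Many of the 39 genes, with *Bst2* and *Irgm1* among them, were highest in 1 mouse, β-CB1R+/+ mouse 4.

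The count past adjusted p 0.05 was 0 of 39, beside 0.171% of the 16955 genes compared and 0.11% of the 39160 probes. At an unadjusted p under 0.05 the count was 2 of 39 (*Ifih1* and *Bst2*), or 5.13%, against 3.9% of all genes, and both were lower in β-CB1R-/- islets, as were 2.02% of all genes at that threshold. The groups did not overlap for 3 of 39, or 7.69%, against 4.82% of all genes, and all 3 were lower in β-CB1R-/- islets, against 2.21%. The share of genes with a negative log2 fold change was 76.9%, against 55.7% of all genes and 87.5% of the 8 beta cell markers. The median log2 fold change was −0.21 for the 39 genes and −0.039 for all genes, and single values ran from −1.23 (*Isg15*) to 0.66 (*Usp18*). Without β-CB1R+/+ mouse 4 the median of the 39 genes was −0.060, against −0.064 for all genes, and 23 of 39 were lower.

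**Figure D1:**
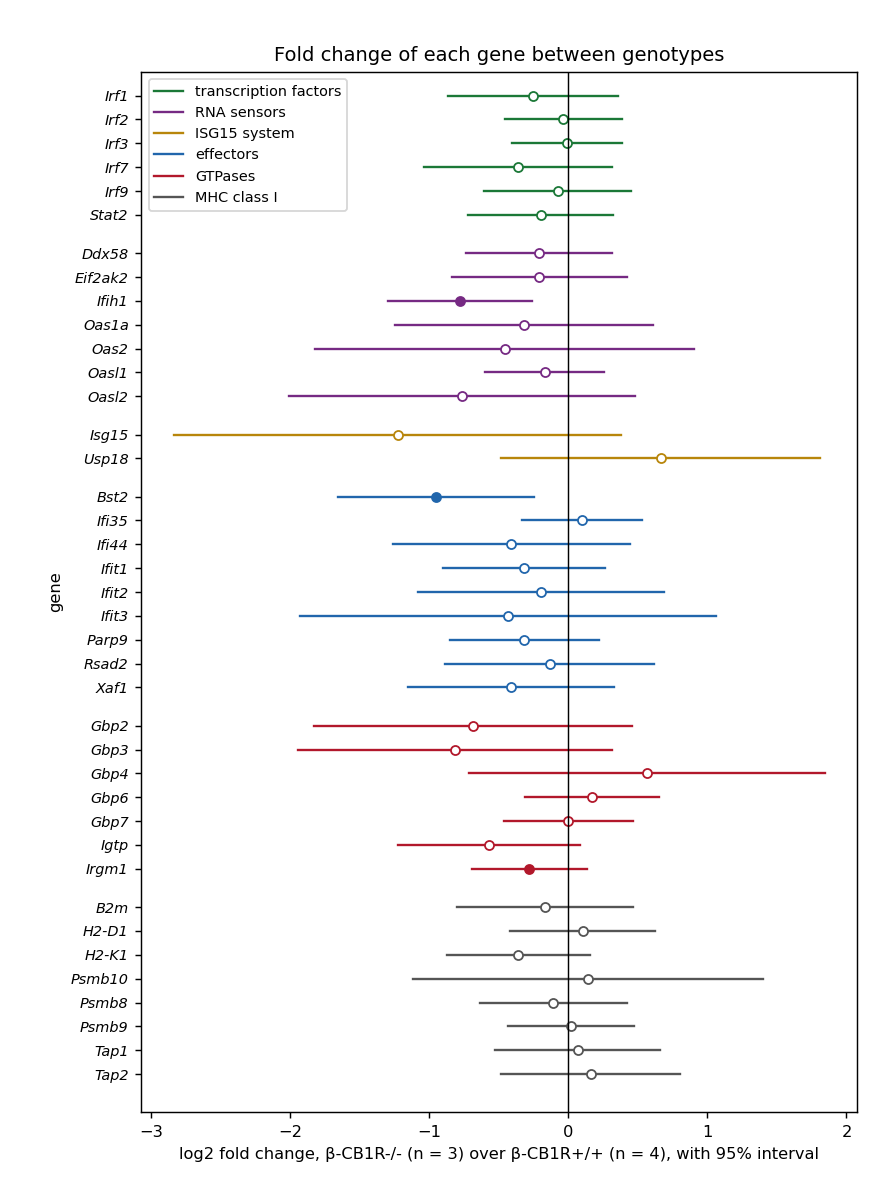
Log2 fold change of each of the 39 genes between β-CB1R-/- (n = 3) and β-CB1R+/+ (n = 4) islets, on the x axis, by gene and coloured by role; lines are 95% intervals from limma and filled circles mark genes whose groups do not overlap. The intervals of *Ifih1* and *Bst2* lie below 0, and those of the other 37 genes include 0.

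The transcription factors differed little. All 6 were lower in β-CB1R-/- islets, with log2 fold changes from −0.36 to −0.011 (median −0.14), none at an unadjusted p under 0.05. *Stat2*, the STAT that is specific to type I and type III interferon signalling, was 1.41, 1.40, 1.18 and 1.47 in β-CB1R+/+ mice 1 to 4 and 1.08, 0.83 and 1.58 in β-CB1R-/- mice 1 to 3. Its highest value was in β-CB1R-/- mouse 3, and the groups overlapped (log2 fold change −0.20, standard error 0.23, limma adjusted p = 0.999). Without β-CB1R-/- mouse 2 it was −0.033 and without β-CB1R-/- mouse 3 it was −0.41. *Irf7*, the interferon-induced factor that amplifies type I interferon production, was dim, at −1.85, −2.58, −2.58 and −1.70 in β-CB1R+/+ mice and −2.27, −2.56 and −2.79 in β-CB1R-/- mice. β-CB1R+/+ mice 1 and 4 were above the other 5 mice, and the log2 fold change was −0.36 (standard error 0.29, limma adjusted p = 0.999), or −0.20 without β-CB1R+/+ mouse 4 and −0.23 without β-CB1R-/- mouse 3. For *Irf1*, a factor that interferon-γ induces, the log2 fold change was −0.25. The log2 fold changes of *Irf2* (−0.035), *Irf3* (−0.011) and *Irf9* (−0.077), of which *Irf3* is the constitutive factor that starts interferon production, were smaller than the SD between β-CB1R+/+ mice.

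The sensors of RNA and the enzymes that RNA activates were lower in β-CB1R-/- islets for 7 of 7 genes (median −0.32 on the log2 scale). Both values lean in part on β-CB1R+/+ mouse 4, the highest of all mice for 5 of the 7. *Ifih1* encodes MDA5, a cytoplasmic sensor of long double-stranded RNA and a type 1 diabetes risk gene. It was 0.34, 0.75, 0.52 and 0.67 in β-CB1R+/+ mice 1 to 4 and −0.20, −0.55 and 0.12 in β-CB1R-/- mice 1 to 3. No mouse of 1 group lay inside the range of the other, and β-CB1R+/+ mouse 4 was not the highest. The log2 fold change was −0.78 (standard error 0.22, 95% interval −1.29 to −0.26), with an unadjusted p of 0.00841 and an adjusted p of 0.999 (limma). An exact, two-sided permutation test of the means gave p = 0.0286, the smallest that 4 mice against 3 allow, which restates that the groups did not overlap, as it does for *Bst2* and *Irgm1*. The log2 fold change of *Ifih1* stayed between −0.94 and −0.61 under every alternative run on this scale. *Ddx58* encodes RIG-I, the sensor of RNA with a 5′ triphosphate, and *Eif2ak2* the RNA-activated kinase PKR. Both had log2 fold changes of −0.21 (standard errors 0.23 and 0.27). A test of *Ifih1* against *Ddx58* was not made.

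*Oas2*, an oligoadenylate synthetase of the pathway that degrades viral RNA, behaved otherwise. It was −1.98, −1.08, −1.71 and 0.33 in β-CB1R+/+ mice 1 to 4 and −1.93, −2.09 and −0.68 in β-CB1R-/- mice 1 to 3. The highest value was in β-CB1R+/+ mouse 4 and the next in β-CB1R-/- mouse 3, and the log2 fold change of −0.46 (standard error 0.59, limma adjusted p = 0.999) became 0.021 without β-CB1R+/+ mouse 4. *Oas1a*, *Oasl1* and *Oasl2* had log2 fold changes of −0.32, −0.17 and −0.77, and each was also highest in β-CB1R+/+ mouse 4. *Oas1a* has near-identical copies, and its probes may read them as well.

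*Isg15*, a ubiquitin-like protein that is joined to other proteins after interferon, had the largest difference between genotypes among the 39 genes and also the largest spread between mice. It was 0.60, −0.0041, 0.091 and 2.79 in β-CB1R+/+ mice 1 to 4 and 0.17, −1.21 and −0.032 in β-CB1R-/- mice 1 to 3. β-CB1R+/+ mouse 4 was above all other mice and β-CB1R-/- mouse 2 below them, and the other 5 lay between them. The log2 fold change was −1.23, or 2.34-fold lower, with a standard error of 0.70 (unadjusted p = 0.116, limma adjusted p = 0.999), and was −0.59 without β-CB1R+/+ mouse 4 and −0.80 without β-CB1R-/- mouse 2. A dimmer probe for *Isg15* gave −1.84, −2.58, −2.09 and −1.19 in β-CB1R+/+ mice and −2.23, −2.81 and −2.63 in β-CB1R-/- mice. Mouse 4 was the highest with both probes. *Usp18*, the protease that removes ISG15 from proteins and damps interferon receptor signalling, had the highest log2 fold change of the 39 genes (0.66, standard error 0.50, unadjusted p = 0.219), and the groups overlapped. The directions of *Isg15* and *Usp18* were thus opposite, neither past the threshold.

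The antiviral effectors and other induced genes were lower in β-CB1R-/- islets for 8 of 9 genes compared (median again −0.32). Both values lean on β-CB1R+/+ mouse 4, whose median excess over the mean of the other β-CB1R+/+ mice was 0.98 (log2) for these genes. *Bst2* encodes tetherin, which holds budding virus at the cell membrane. It was 0.51, 0.88, 0.57 and 1.69 in β-CB1R+/+ mice 1 to 4 and −0.032, −0.15 and 0.065 in β-CB1R-/- mice 1 to 3. The 3 β-CB1R-/- mice lay close together and below all 4 β-CB1R+/+ mice, of which mouse 4 was the highest. The log2 fold change was −0.95 (standard error 0.30, 95% interval −1.65 to −0.24), with an unadjusted p of 0.0145 and an adjusted p of 0.999 (limma). Without β-CB1R+/+ mouse 4 the log2 fold change was −0.69, and *Bst2* and *Ifih1* were at an unadjusted p under 0.05 in the original comparison and under every alternative. *Bst2* is also a marker of plasmacytoid dendritic cells. The other 3 markers listed for these cells had log2 fold changes of 0.68 for *Siglech*, 0.088 for *Irf8* and 0.10 for *Tcf4*. The part of these cells in the values of *Bst2* was not tested.

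*Ifit1* and *Ifit3* encode proteins that bind viral RNA or its translation machinery. *Ifit1* was −2.09, −2.01, −2.29 and −1.46 in β-CB1R+/+ mice 1 to 4 and −2.48, −2.37 and −2.0 in β-CB1R-/- mice 1 to 3. *Ifit3* was −1.48, −1.58, −1.06 and 1.05 and −1.50, −1.62 and −0.47 in the same order. Both were highest in β-CB1R+/+ mouse 4 and next in β-CB1R-/- mouse 3; for *Ifit1* β-CB1R+/+ mouse 2 was close to the latter. The log2 fold change of *Ifit1* was −0.32 (standard error 0.25) and that of *Ifit3* was −0.43 (standard error 0.65), both at a limma adjusted p of 0.999, and without β-CB1R+/+ mouse 4 they were −0.15 and 0.17. The log2 fold changes of the other effectors were −0.20 for *Ifit2*, −0.14 for *Rsad2*, which encodes viperin, −0.41 for *Ifi44*, −0.41 for the apoptosis regulator *Xaf1*, −0.32 for *Parp9* and 0.099 for *Ifi35*. All 9 effectors were highest in β-CB1R+/+ mouse 4.

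**Figure D2:**
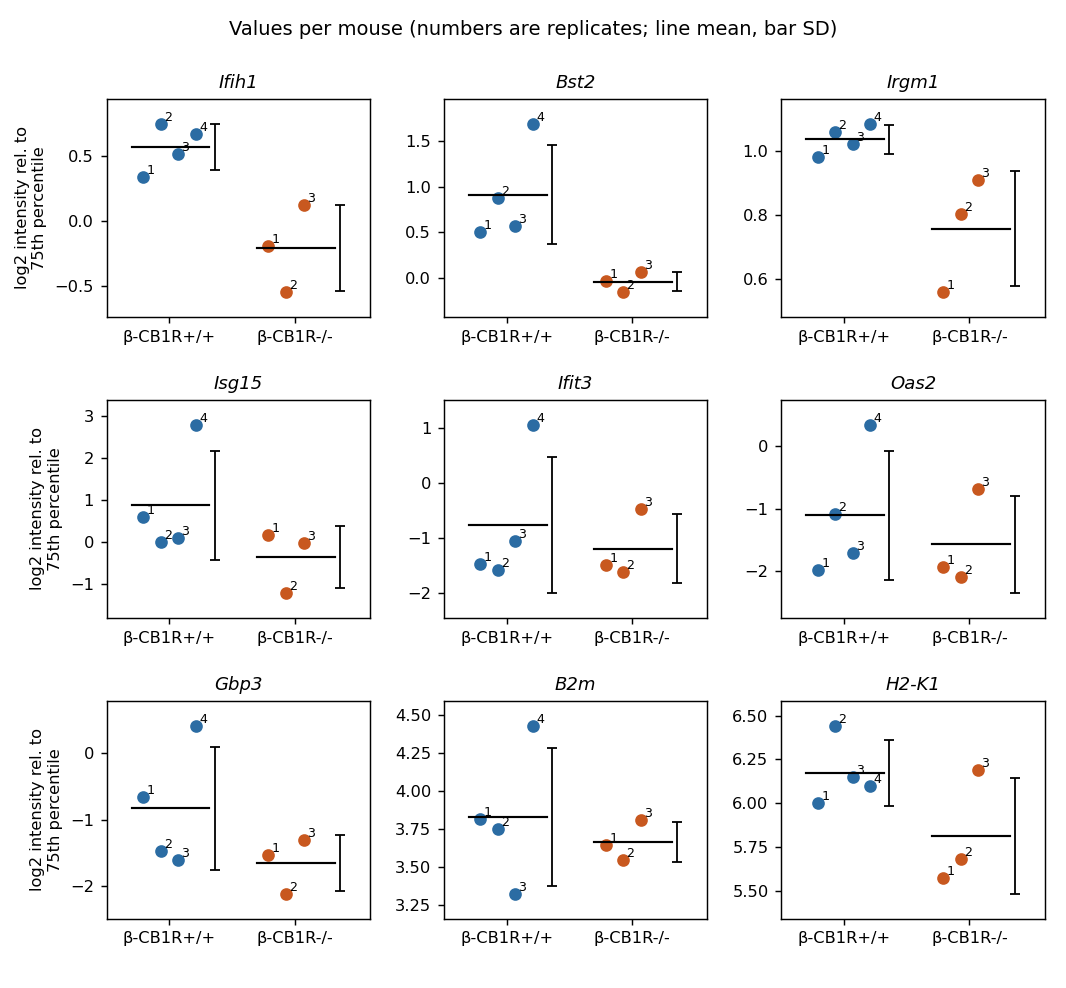
Log2 intensity relative to the 75th percentile of the array (y axis) of 9 genes in each β-CB1R+/+ and β-CB1R-/- mouse; numbers are replicates, lines are means and bars are SDs. *Ifih1*, *Bst2* and *Irgm1* separate the genotypes. *Bst2* and *Irgm1*, like *Isg15*, *Ifit3*, *Oas2*, *Gbp3* and *B2m*, are highest in β-CB1R+/+ mouse 4.

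The interferon-inducible GTPases, which attack the vacuoles of intracellular microbes, were mixed: 5 of 7 were lower in β-CB1R-/- islets (median −0.28 on the log2 scale). *Irgm1*, a regulatory member of the family, was 0.98, 1.06, 1.02 and 1.08 in β-CB1R+/+ mice 1 to 4 and 0.56, 0.80 and 0.91 in β-CB1R-/- mice 1 to 3. The β-CB1R+/+ values lay close together, with mouse 4 the highest, and all β-CB1R-/- values were below them. The log2 fold change was −0.28 (standard error 0.18, unadjusted p = 0.156, limma adjusted p = 0.999), or −0.18 without β-CB1R-/- mouse 1. A dimmer probe for *Irgm1* gave −1.30, −1.15, −0.98 and −1.19 in β-CB1R+/+ mice and −1.40, −1.44 and −1.25 in β-CB1R-/- mice, with overlapping groups. *Igtp* gave a log2 fold change of −0.57 (standard error 0.28, unadjusted p = 0.0786), with β-CB1R-/- mouse 3 inside the β-CB1R+/+ range.

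Among the guanylate-binding proteins, *Gbp3* was −0.66, −1.47, −1.60 and 0.40 in β-CB1R+/+ mice 1 to 4 and −1.54, −2.11 and −1.30 in β-CB1R-/- mice 1 to 3. Mouse 4 was again the highest, and the log2 fold change was −0.82 (standard error 0.49, limma adjusted p = 0.999), or −0.405 without that mouse. *Gbp2* gave a log2 fold change of −0.68 and was also highest in that mouse. *Gbp4* did not share this order: it was −0.15, −2.29, −2.14 and −0.61 in β-CB1R+/+ mice 1 to 4 and −1.08, −0.83 and −0.28 in β-CB1R-/- mice 1 to 3. β-CB1R+/+ mice 2 and 3 were the lowest of the 7, β-CB1R+/+ mouse 1 the highest, and the log2 fold change was 0.57 (standard error 0.55, limma adjusted p = 0.999). Leaving out 1 mouse at a time moved it between 0.24 (without β-CB1R+/+ mouse 2) and 0.95 (without β-CB1R+/+ mouse 1). *Gbp6* and *Gbp7* had log2 fold changes of 0.17 and −0.0018. These genes resemble one another closely, and probes may read more than 1 of them.

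The genes of MHC class I antigen presentation had no common direction: 5 of 8 had a positive log2 fold change (median 0.044, range −0.36 to 0.16), and none was at an unadjusted p under 0.05. A difference between the roles was not tested. *B2m*, the light chain of every MHC class I molecule, was 3.82, 3.75, 3.32 and 4.43 in β-CB1R+/+ mice 1 to 4 and 3.64, 3.54 and 3.81 in β-CB1R-/- mice 1 to 3. Mouse 4 was the highest and mouse 3 of the same genotype the lowest; the log2 fold change of −0.17 (standard error 0.27, limma adjusted p = 0.999) turned to 0.034 without β-CB1R+/+ mouse 4. Of the heavy chains, *H2-K1* was 6.00, 6.44, 6.15 and 6.10 in β-CB1R+/+ mice 1 to 4 and 5.57, 5.68 and 6.19 in β-CB1R-/- mice 1 to 3. β-CB1R-/- mice 1 and 2 were below all β-CB1R+/+ mice and β-CB1R-/- mouse 3 was above 3 of them (log2 fold change −0.36, standard error 0.22, limma adjusted p = 0.999). It was −0.55 without β-CB1R-/- mouse 3 (unadjusted p = 0.0339, limma adjusted p = 0.506) and −0.24 without β-CB1R-/- mouse 1. A dimmer probe for *H2-K1* gave 4.18, 4.34, 4.18 and 4.30 in β-CB1R+/+ mice and 4.07, 4.13 and 4.50 in β-CB1R-/- mice, with a log2 fold change of −0.016. *H2-D1* was 4.10, 4.48, 4.33 and 4.29 and 4.02, 4.73 and 4.46, with β-CB1R-/- mouse 2 the highest and mouse 1 of that genotype the lowest (log2 fold change 0.10, standard error 0.23, limma adjusted p = 0.999). The 2 heavy chains are near-identical to each other and to further class I genes, and their probes may share signal.

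The TAP transporter carries peptides into the endoplasmic reticulum. *Tap1* was dim, well above background on 3 of 4 β-CB1R+/+ arrays and on all 4 β-CB1R-/- arrays. It was −2.85, −3.17, −3.30 and −2.95 in β-CB1R+/+ mice 1 to 4 and −3.27, −2.48 and −3.26 in β-CB1R-/- mice 1 to 3, with the highest value in β-CB1R-/- mouse 2 and overlapping groups (log2 fold change 0.067, standard error 0.26, limma adjusted p = 0.999). *Tap2* gave a log2 fold change of 0.16 (standard error 0.28).

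The immunoproteasome subunits *Psmb8*, *Psmb9* and *Psmb10* replace the constitutive subunits *Psmb5*, *Psmb6* and *Psmb7* under interferon. *Psmb8* was 0.97, 0.97, 0.90 and 1.47 in β-CB1R+/+ mice 1 to 4 and 0.67, 1.05 and 1.19 in β-CB1R-/- mice 1 to 3. β-CB1R+/+ mouse 4 stood above the other 6 (log2 fold change −0.11, standard error 0.23, limma adjusted p = 0.999), as it did less clearly for *Psmb9* (log2 fold change 0.020, standard error 0.20). *Psmb10* was 6.22, 4.67, 5.98 and 6.24 in β-CB1R+/+ mice 1 to 4 and 6.97, 5.82 and 4.97 in β-CB1R-/- mice 1 to 3. Its order differed from that of the other subunits: β-CB1R-/- mouse 1 was the highest and β-CB1R+/+ mouse 2 and β-CB1R-/- mouse 3 the lowest, so that the genotypes overlapped widely (log2 fold change 0.14, standard error 0.55, limma adjusted p = 0.999).

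The same mice were highest and lowest for *Ctrl*, which encodes a chymotrypsin-like enzyme of acinar cells, lies beside *Psmb10* in the RefSeq annotation of GRCm38.p6 and was picked after its values were seen. *Ctrl* was 10.34, 8.28, 10.07 and 10.26 in β-CB1R+/+ mice 1 to 4 and 10.91, 10.85 and 9.11 in β-CB1R-/- mice 1 to 3. The orders differed for β-CB1R-/- mouse 2, which was the second highest for *Ctrl* and the fifth for *Psmb10*, and β-CB1R+/+ mice 1 and 4 changed places. All 8 acinar markers were measured, and the log2 of their summed intensity ran from 12.9 to 13.8 in β-CB1R+/+ mice and from 12.9 to 13.9 in β-CB1R-/- mice. Its lowest values were also in β-CB1R+/+ mouse 2 and β-CB1R-/- mouse 3. The part of acinar RNA in the values of *Psmb10* was not tested. Of the constitutive counterparts, the log2 fold change was −0.14 for *Psmb5* and −0.14 for *Psmb6* (standard errors 0.20 and 0.18). *Psmb7*, which *Psmb10* replaces, was higher in each β-CB1R-/- mouse than in any β-CB1R+/+ mouse, at 2.19, 1.97, 2.11 and 2.28 against 2.51, 2.53 and 2.38. This came to 0.34 on the log2 scale (standard error 0.18, unadjusted p = 0.0952, limma adjusted p = 0.999).

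**Figure D3:**
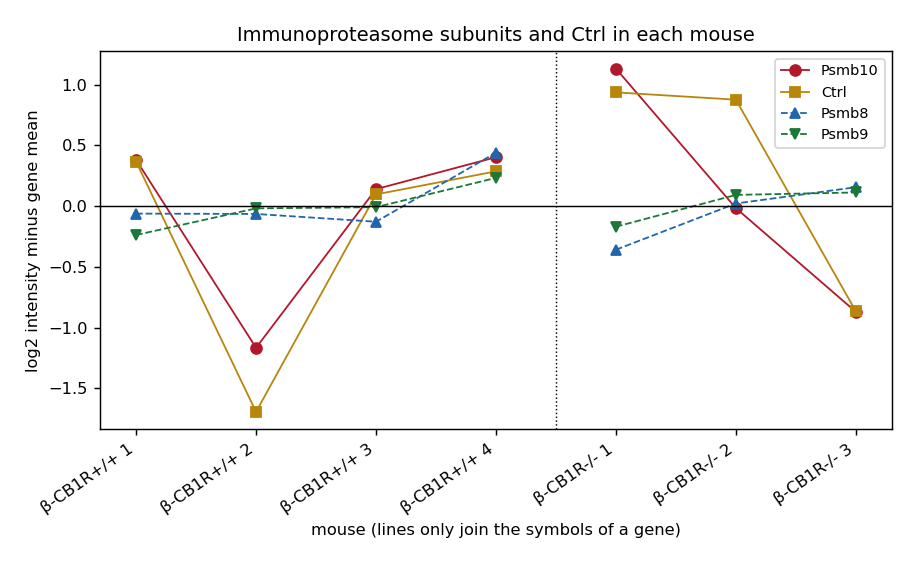
Log2 intensity of *Psmb10*, *Ctrl*, *Psmb8* and *Psmb9* in each mouse (x axis), as the difference from the mean of the gene over 7 mice (y axis); lines only join the symbols of a gene. *Psmb10* and *Ctrl* are lowest in β-CB1R+/+ mouse 2 and β-CB1R-/- mouse 3, where *Psmb8* and *Psmb9* stay near their means.

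Many of the highest values of these genes were in β-CB1R+/+ mouse 4. That mouse was the highest of 7 for 22 of the 39 genes (56.4%), against 6.88% of all genes compared. Among the 4 β-CB1R+/+ mice alone it was the highest for 25 of 39 (64.1%), against 16.2%. Its excess over the mean of the other 3 β-CB1R+/+ mice had a median of 0.32 on the log2 scale, against −0.093 for all genes, and was 2.56 for *Isg15*, 2.43 for *Ifit3*, 1.92 for *Oas2* and 1.65 for *Gbp3*. By role, mouse 4 was the highest of 7 for 9 of 9 effectors, 5 of 7 RNA sensors, 3 of 7 GTPases, 3 of 8 MHC class I genes and 1 of 6 transcription factors. This is a description of 1 mouse, for which there is no replicate and no test.

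**Figure D4:**
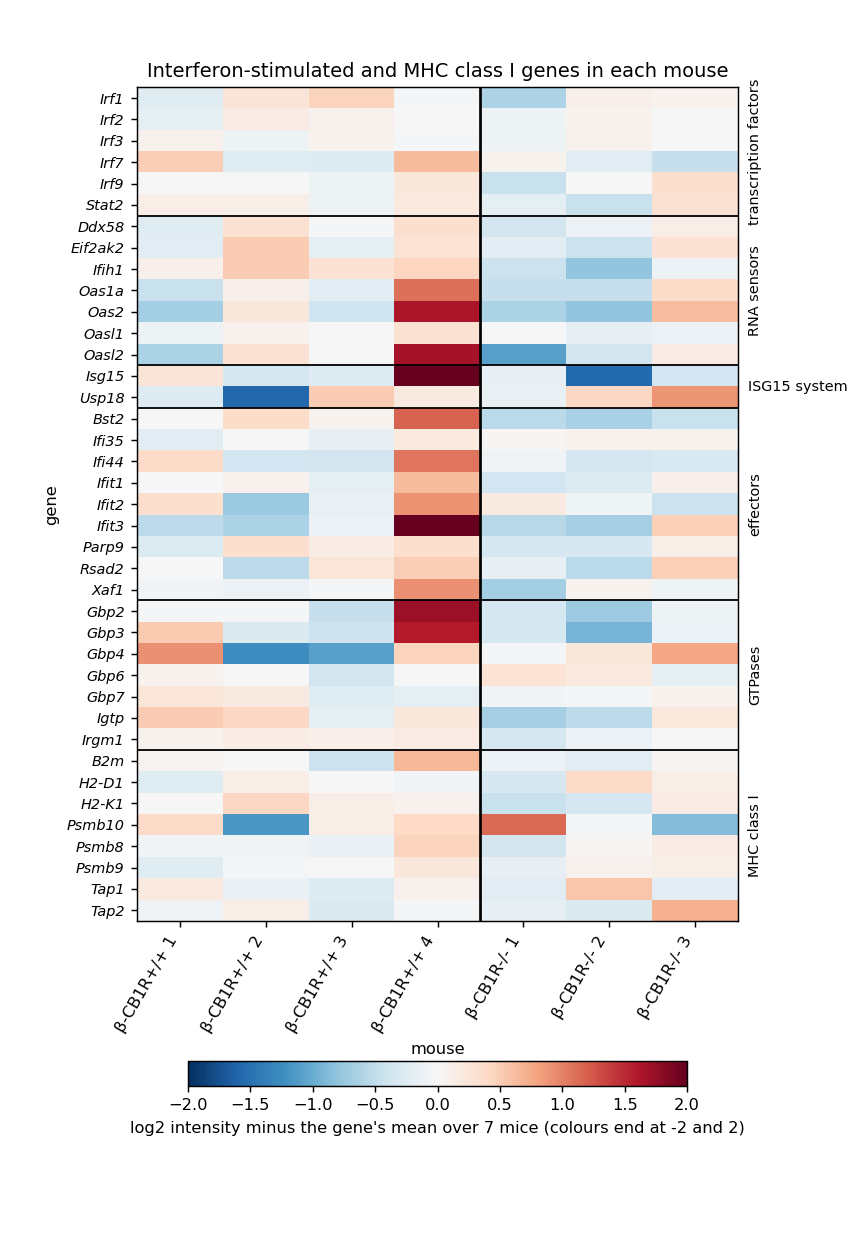
Log2 intensity of the 39 genes (rows, by role) in each mouse (columns), as the difference from the mean of the gene over 7 mice; colours end at −2 and 2. The column of β-CB1R+/+ mouse 4 is the highest for all 9 effectors and for 22 of the 39 genes.

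Among the β-CB1R-/- mice, mouse 3 was the highest for 26 of 39 genes (66.7%), against 44.4% of all genes. The median deviation of the 39 genes from their means over 7 mice was 0.078 in that mouse, and −0.23 and −0.22 in β-CB1R-/- mice 1 and 2. It was 0.0045, 0.016, −0.11 and 0.34 in β-CB1R+/+ mice 1 to 4, and the SD of this median between mice of a genotype was 0.18. By this measure β-CB1R-/- mouse 3 lay above the first 3 β-CB1R+/+ mice, and without it the median of the fold changes of the 39 genes was −0.36 (log2). The repeat arrays of β-CB1R-/- mouse 2 differed by a median of 0.12 and at most 0.41 over the 39 genes, beside the median SD between mice of 0.36 for single genes.

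Markers of other cells moved with β-CB1R+/+ mouse 4 as well. All 6 stellate cell and fibroblast markers were highest in it, and the log2 of their summed intensity was 5.86 there, 2.24 to 3.04 in the other β-CB1R+/+ mice and 4.03 to 4.76 in β-CB1R-/- mice. *Col1a1*, a fibrillar collagen, was −1.19, −2.26, −1.26 and 2.43 in β-CB1R+/+ mice 1 to 4 and 0.38, 1.19 and 0.21 in β-CB1R-/- mice 1 to 3. The first 3 β-CB1R+/+ mice had the least of these markers, whereas β-CB1R-/- mouse 1 or 2 was the lowest for 25 of the 39 genes (64.1%, against 38.6% of all genes). Of the endothelial markers, 4 of 6 were highest in mouse 4. Of the macrophage markers, 7 of 10 were highest in mouse 4 among the β-CB1R+/+ mice (median excess over the other 3 of 0.46), 1 of 10 was highest in it among all 7 mice, and all 10 had a positive log2 fold change (median 0.46), the opposite direction to most interferon-stimulated genes. Of these, *Mrc1* passed the brightness filter only through the β-CB1R-/- mice, and nothing is read from its direction. The summed level of the 10 markers ran from 5.48 to 5.91 in β-CB1R+/+ mice and from 5.91 to 6.54 in β-CB1R-/- mice. This sum mainly follows the brightest probe, *Itgam*, which was 5.04, 5.41, 5.29 and 5.40 in β-CB1R+/+ mice and 5.94, 6.18 and 5.24 in β-CB1R-/- mice. The median deviation of the 10 markers ran from −0.52 to 0.15 in β-CB1R+/+ mice and from −0.20 to 0.59 in β-CB1R-/- mice, with overlap. The median log2 fold change was 0.18 for the 8 acinar markers, 0.035 for the 6 endothelial markers and 0.21 for the 6 T cell markers. The islet endocrine markers were mostly lower in β-CB1R-/- islets, as the 39 genes were: 7 of 8 beta cell markers (median log2 fold change −0.13), 3 of 4 alpha cell markers (median −0.48, 1 at an unadjusted p under 0.05) and both delta cell markers (median −0.36). The median deviation of the beta cell markers from their means over 7 mice was −0.31, −0.33 and 0.23 in β-CB1R-/- mice 1 to 3, that of the alpha cell markers −0.26, −0.63 and 0.055, and that of the delta cell markers −0.27, −0.41 and 0.061, so mouse 3 was the highest of the 3 for each list, as for the 39 genes. In β-CB1R+/+ mouse 4, where the 39 genes were at their highest, it was −0.12 for beta cell and −0.037 for alpha cell markers, below the other β-CB1R+/+ mice. For delta cell markers it was 0.16 in that mouse, above β-CB1R+/+ mouse 1 (−0.13) and below mice 2 and 3 (0.26 and 0.32). The log2 of the summed intensity of the beta cell markers ran from 11.9 to 12.3 in β-CB1R+/+ mice and from 11.6 to 12.2 in β-CB1R-/- mice. The part of these cells in the values of the 39 genes was not tested.

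**Figure D5:**
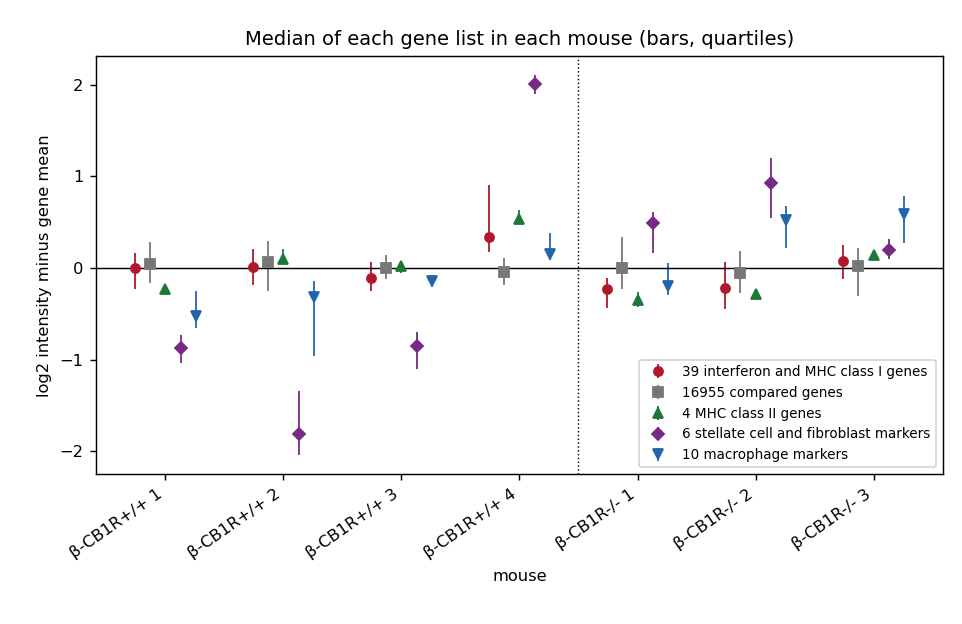
Median (symbols) and quartiles (bars) of the log2 intensity, as the difference from each gene's mean over 7 mice (y axis), for 5 gene lists in each mouse (x axis). The interferon and MHC class I genes reach 0.34 in β-CB1R+/+ mouse 4, where the stellate cell and fibroblast markers reach 2.01 and all compared genes are at −0.041.

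The MHC class II genes, which present peptides to CD4+ T cells and are not part of the 41, shared the highest mouse of each genotype with the median of the 39 genes. *Cd74*, *H2-Aa*, *H2-Ab1* and *H2-Eb1* were highest in β-CB1R+/+ mouse 4, and each was highest in mouse 3 among the β-CB1R-/- mice. All 4 were lower on average in β-CB1R-/- islets, with log2 fold changes from −0.43 to −0.13, and none was at an unadjusted p under 0.05.

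Of 79 other genes of the interferon and antigen presentation pathways, 68 could be compared. In β-CB1R-/- islets 26 were higher and 42 lower, and the median was −0.062 on the log2 scale. Of these, 1 passed the adjusted threshold and 3 were at an unadjusted p under 0.05, all higher in β-CB1R-/- islets. The first of these counts is set beside 0.171% of all genes and the second beside 3.9%. *Gbp8* reached this brightness on all 4 β-CB1R-/- arrays and on no array of the other genotype, and was at least 8.85-fold higher (limma adjusted p = 0.0165). It passed the brightness filter only through the β-CB1R-/- mice, and it missed the threshold under 7 of 17 alternatives (adjusted p from 0.0065 to 0.37): the replicate block, the methods' *t* test, and without β-CB1R+/+ mouse 2, 3 or 4 or β-CB1R-/- mouse 2 or 3. The chemokine *Cxcl10* was above background on 1 of 4 β-CB1R+/+ arrays and all 4 β-CB1R-/- arrays. Like *Gbp8*, it could not have passed the filter without the β-CB1R-/- mice, so nothing is read from the counts of 1 and 3 or from their direction. *Ifngr2*, a chain of the interferon-γ receptor, was 0.53, −0.016, 0.33 and 0.73 in β-CB1R+/+ mice 1 to 4 and 1.02, 0.83 and 0.99 in β-CB1R-/- mice 1 to 3, with no overlap (log2 fold change 0.56, standard error 0.22, unadjusted p = 0.0386, limma adjusted p = 0.999). The groups did not overlap for 4 of the 68 (5.88%, against the 4.82% of all genes): *Gbp8*, *Ifngr2*, *Psmb7* and *Ikbke*, a kinase upstream of interferon production, with a log2 fold change of 0.32 (standard error 0.17). Nothing is read from this count either, since *Gbp8* is in it. Of 7 interferons listed, *Ifnl3* and *Ifnk* were bright enough to compare, with log2 fold changes of −0.42 and −0.074, neither at an unadjusted p under 0.05; *Ifnb1*, *Ifna4*, *Ifng*, *Ifnl2* and *Ifne* were not. β-CB1R+/+ mouse 4 was the highest for 16 of the 68 genes (23.5%). Of the 13 genes of class I assembly and the constitutive proteasome, 10 were lower in β-CB1R-/- islets (76.9%, median log2 fold change −0.15), none at an unadjusted p under 0.05, and β-CB1R-/- mouse 3 was the highest of its genotype for 11 of them (84.6%).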

How the data were processed

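RNA from islets of 7 mice was measured on 8 arrays. The authors deposited the spot intensities of Feature Extraction 11.5.1.1, with background subtracted and no scaling between arrays. They also deposited a Z score of each spot, which differed by at most 0.00503 from the standardised log10 intensity of its array. Authors' comparisons were not used.

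From the intensities, log2 values minus the 75th percentile of the non-control spots of each array were computed. Irregular spots were left out, spots of a probe averaged, and the 2 repeat arrays averaged. A probe was compared when well above background in at least 3 of 7 mice (39160 of 55681 probes, 22129 of them with a symbol, 16955 genes). No spot was saturated. Accession numbers were matched to the RefSeq annotation of GRCm38.p6 for symbols only, since the header of the arrays names another build. The brightest compared probe stood for a gene. Genotypes were compared per probe with limma 3.58.1 in R 4.3.3 (lmFit and eBayes). Tests were two-sided, p-values were adjusted by Benjamini-Hochberg over all compared probes, and the threshold was 0.05. Single genes also had an exact permutation test, for which the mice split in 35 ways. Numbers shared between genotypes did not pair the mice.

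The genes, their roles, the other pathway genes and the marker lists were chosen with earlier results of these data known. Values in every mouse are given for a gene that passed the threshold, whose groups did not overlap, that had the largest difference or SD in its role, or that was named in advance (*Stat2*, *Irf7*, *Isg15*, *Ifit1*, *Psmb8*, *Tap1*, *B2m*, *H2-K1*, *H2-D1*), 17 in all; of other pathway genes, those at an unadjusted p under 0.05 or without overlap, and *Psmb5*, *Psmb6* and *Psmb7*, are named; 1 further gene of this rule and 1 marker list are not reported here. Other genes named were picked with their values in view. Alternatives comprised normexp on median intensities (offset 50, set after the data were examined), quantile normalisation, the Z scores, no filter or a filter on all mice, either repeat array, a replicate block, a variance trend, the methods' *t* test, the mean over the probes of a gene, and each mouse left out. A block for slide or scan could not be fitted with 1 slide and 1 scan. The fit was tested on simulated data. The number of arrays limits the precision.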

Additional observations from a re-analysis of the deposited data

Results flagged for a closer look

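In 7 cases a mouse stood far from the other 3 β-CB1R+/+ mice by Dixon's criterion (gap to the nearest mouse over the range). With 59 genes examined, about 2.95 such cases would arise by chance if the genes were independent and fixed in advance. *Ctrl* was picked after its values were seen and several cases share a mouse, so nothing is read from the difference between these counts. *Psmb8* was 1.47 in β-CB1R+/+ mouse 4 against 0.90 to 0.97 in the others, *Xaf1* was −0.17 in the same mouse against −1.20 to −1.12, and the collagen gene *Col1a2* was 4.02 there against 0.77 to 1.21. *Psmb10* was 4.67 in β-CB1R+/+ mouse 2 against 5.98 to 6.24, and *Ctrl* was 8.28 in the same mouse against 10.1 to 10.3. *Gbp6* was −1.04 in β-CB1R+/+ mouse 3 against −0.67 to −0.60. *Psmb6* was 5.69 in β-CB1R+/+ mouse 1 against 5.50 to 5.52.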

How the results depend on the processing

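No interferon-stimulated or MHC class I gene passed the adjusted threshold under any alternative run. The median of the 39 genes was below 0 under every alternative, from −0.36 (without β-CB1R-/- mouse 3) to −0.060 (without β-CB1R+/+ mouse 4), with 32 and 23 of 39 lower. It was −0.071 in units of the deposited Z score, which has no log2 fold change. Genes at an unadjusted p under 0.05 numbered 2 to 4 with a mouse left out (4 without β-CB1R-/- mouse 3, with *Igtp* and *H2-K1* added, and 3 without β-CB1R+/+ mouse 3), and 3 by the methods' *t* test. The probes past adjusted p 0.05, 43 in all, numbered 23 with no filter, 24 with a filter on all mice, and 0 by the methods' *t* test after adjustment (1412 at an unadjusted p under 0.05). With a mouse left out they numbered 0 to 42: 0 without β-CB1R-/- mouse 2 (785 unadjusted), 5 without β-CB1R-/- mouse 3 or β-CB1R+/+ mouse 3, and 22, 15 and 19 without β-CB1R+/+ mice 1, 2 and 4. The replicate block, which leaves β-CB1R+/+ mouse 4 out, gave 0 probes (1714 unadjusted). Mice with the same number correlated at 0.42, −0.27 and −0.062, and not every mouse correlated best with its own number. The block gave a median of −0.060 for the 39 genes and turned the log2 fold change of *Ifit3* to 0.17, *Oas2* to 0.021, *Psmb8* to 0.024 and *B2m* to 0.034. Leaving out β-CB1R+/+ mouse 4 alone gave the same median and the same log2 fold changes, since both fits compare the same mice, so this is 1 result. With a mouse left out, the log2 fold changes ran from −0.79 to 0.17 for *Ifit3*, −0.90 to 0.021 for *Oas2*, −0.22 to 0.042 for *Psmb8*, −0.33 to 0.034 for *B2m*, −0.38 to 0.62 for *Psmb10*, −0.19 to 0.20 for *Tap1* and −0.061 to 0.30 for *H2-D1*. Normexp turned *Tap1* to −0.024. The cause of these changes of sign was not tested beyond the mouse left out. The others of the 17 genes with values given in every mouse kept their direction. The directions of the remaining genes under the alternatives are not given one by one, and some changed, since 30 of 39 were lower at first and 23 without β-CB1R+/+ mouse 4.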
